A study of Mus musculus with 2 samples.

Results

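The genes described here are 9 that mark macrophages recruited to the injured liver and macrophages of the fibrous scar: Trem2, Gpnmb, Cd9, Fabp5, Lgals3, Spp1, Itgax, Cx3cr1 and Ccr2. They were taken from the array by the RefSeq accession that the scanner files give for each probe, which matched 10 probes, 2 of them for Cx3cr1 and 1 for each other gene. They are 9 of 20284 genes that could be named on the array. The treated mice were male C57BL/6 with liver fibrosis that were given recombinant TSG-6 into a vein, a secreted protein that binds hyaluronan. The PBS mice shared the strain, sex and fibrosis and received phosphate-buffered saline by the same route as the control. Liver RNA was taken 2 weeks later, and equal amounts from 3 mice made 1 pool for each group, hybridised to its own one-colour Agilent array. The agent that caused the fibrosis, the age of the mice and the dose of TSG-6 are not given in the sources used here, and no liver without fibrosis was analysed.

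In a healthy liver most macrophages are resident Kupffer cells. Injury draws monocytes from the blood through the chemokine receptor Ccr2, and these cells can mature in the tissue into macrophages that gather along the scar. In human cirrhosis such scar-associated macrophages carry TREM2 and CD9, and in mice a related lipid-handling state expresses Trem2, Gpnmb, Cd9, Fabp5, Spp1 and the integrin chain Itgax. These genes are not private to macrophages: Spp1 is also made by bile duct cells, Cd9 by platelets and endothelium, Itgax by dendritic cells and Cx3cr1 by NK cells. In whole-liver RNA, fewer cells of a type and less RNA per cell cannot be told apart.

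Most of these genes were lower in the TSG-6 pool, by different amounts. Itgax (2.70-fold lower) and Gpnmb (2.50-fold lower) passed 2-fold, the size used to call a gene here. Cx3cr1, Trem2 and Spp1 formed a middle group between 1.76-fold and 1.78-fold lower, Ccr2 was 1.47-fold lower, Lgals3 was 1.22-fold lower and Fabp5 did not differ beyond the noise of a spot. Cd9 was read only from spots with a quality flag. With 1 pool per group there is no replicate, so no test, p-value or SE between mice could be had, and each value compares these 2 pools. The array and the group cannot be told apart.

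Each array carried 59305 non-control spots, of which 73.9% on the TSG-6 array and 73.1% on the PBS array were well above background among spots without a flag, and none was saturated. The TSG-6 array was dimmer as a whole, with a 75th percentile signal of 2476 against 3158 on the PBS array, so each signal was divided by that percentile of its own array. Differences are log2 of the scaled signal in the TSG-6 pool minus that in the PBS pool. Both arrays measured 15151 genes. In the TSG-6 pool 650 of them (4.29%) were 2-fold lower or more and 446 (2.94%) were 2-fold higher or more, and the median difference was 0.08. That split moved with scaling: 1555 were lower and 173 higher when arrays were scaled to the spike-in controls, and 376 were lower and 1018 higher when the percentile was taken over unflagged spots. Flagged spots were bright, with median signals of 5421 (TSG-6) and 5881 (PBS), against 178 and 210 for all spots. They were also more common on the TSG-6 array (6.44% against 3.40%). Leaving them out of the percentile put the median difference of all genes at 0.37. Where a probe was spotted more than once (326 probes), the log2 differences of its spots had a pooled SD of 0.15, and the scanner software's own error for a single-spot probe of these genes came to 0.20 or 0.21. Both cover the measurement of a spot and leave out the spread between mice. The liver was recognisable by its hepatocyte genes, since 7 of 8 listed hepatocyte genes were measured and the albumin gene Alb had a level of 4.67 in the TSG-6 pool and 4.31 in the PBS pool (log2 of the scaled signal).

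**Figure D1:**
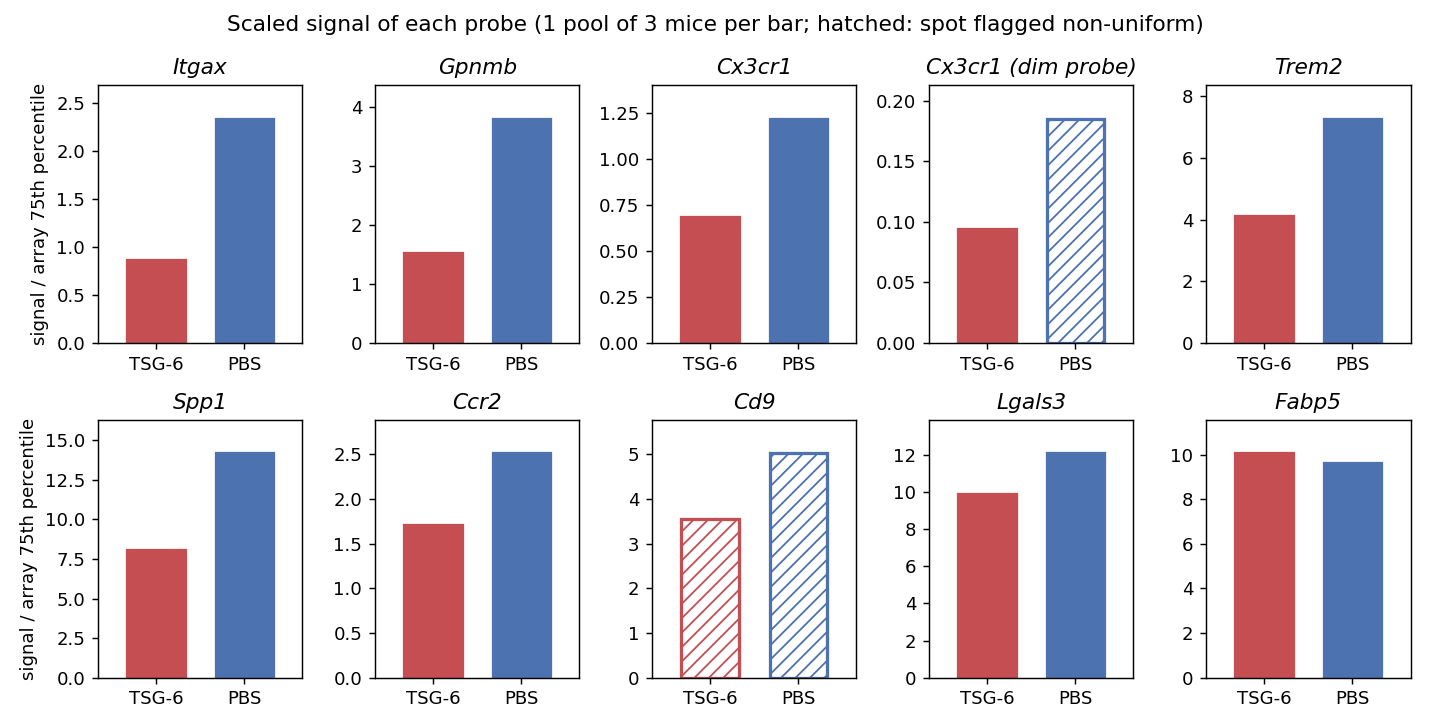
Scaled signal of every probe of the 9 genes, as processed signal divided by the 75th percentile signal of its array, with 1 bar for the TSG-6 pool (red) and 1 for the PBS pool (blue); each bar is 1 array of 3 pooled mice and has no error bar. The TSG-6 bar is the shorter in every panel except Fabp5, and hatched bars are spots flagged as non-uniform.

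The 4 lines that follow show the 250 bases before the annotated start of Itgax and Gpnmb, which passed 2-fold, and of Trem2 and Spp1, the genes of the set with a searched motif in the window. They are RefSeq sequences of build GRCm38.p6, read 5′ to 3′ on the strand of the gene, and differ in build from the array, which was designed on mm9. Capitals mark GAGGAA or its reverse complement TTCCTC, a core that ETS factors such as the myeloid factor PU.1 can bind.
Itgax, chr7:128129300-128129549, strand +: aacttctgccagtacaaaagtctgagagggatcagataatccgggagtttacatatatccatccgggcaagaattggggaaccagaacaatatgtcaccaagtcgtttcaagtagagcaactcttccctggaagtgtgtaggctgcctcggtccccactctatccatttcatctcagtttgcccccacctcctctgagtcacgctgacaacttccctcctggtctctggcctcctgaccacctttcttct
Gpnmb, chr6:49036268-49036517, strand +: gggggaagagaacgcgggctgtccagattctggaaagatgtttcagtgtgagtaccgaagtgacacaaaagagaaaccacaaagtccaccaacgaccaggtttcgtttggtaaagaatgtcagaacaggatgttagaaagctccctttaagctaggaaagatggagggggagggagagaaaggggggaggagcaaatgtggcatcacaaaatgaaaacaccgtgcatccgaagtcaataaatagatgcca
Trem2, chr17:48346151-48346400, strand +: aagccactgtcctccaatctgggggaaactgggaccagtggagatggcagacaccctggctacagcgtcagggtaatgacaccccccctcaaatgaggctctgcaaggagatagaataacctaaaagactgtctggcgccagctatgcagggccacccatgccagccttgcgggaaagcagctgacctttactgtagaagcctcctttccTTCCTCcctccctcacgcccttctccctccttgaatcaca
Spp1, chr5:104434861-104435110, strand +: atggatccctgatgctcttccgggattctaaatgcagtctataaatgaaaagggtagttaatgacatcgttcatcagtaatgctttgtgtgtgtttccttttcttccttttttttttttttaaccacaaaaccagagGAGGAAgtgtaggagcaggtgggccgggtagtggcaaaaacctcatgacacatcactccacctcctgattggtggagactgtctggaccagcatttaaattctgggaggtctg
The Trem2 window held the core 40 bases before the start, on the opposite strand, and the Spp1 window held it 113 bases before the start, on the gene's strand. Spp1 has a second listed start, whose window held none. Promoters were listed for 8 of the 9 genes, with 9 windows in all. Of these windows 2 held the core, against 23.3% of all 32851 promoter windows of that length. The E-box CACGTG, a site of the lysosomal regulators Mitf and Tfeb, was in no window of these genes and in 6.02% of all windows. Itgax and Gpnmb held neither set of letters within 250 bases. The letters describe these windows only.

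Trem2 encodes a lipid-sensing receptor that macrophages use to take up debris and to survive in fatty or scarred tissue. Its single probe gave a processed signal of 10223 on the TSG-6 array and 22983 on the PBS array. After scaling it stood at 4.13 times the 75th percentile in the TSG-6 pool and 7.28 times in the PBS pool, a log2 difference of -0.82. Of the 15151 measured genes, 924 had a lower difference (6.10%). Trem2 signals through the adaptor Tyrobp, also called DAP12, and this partner did not follow: Tyrobp differed by 0.11. The second adaptor, Hcst, differed by 0.13. Downstream of them, the kinase Syk differed by -0.40, the phospholipase Plcg2 by -0.34 and the phosphatase Inpp5d by -0.46. Apoe, a lipid-carrying protein ligand of Trem2 that hepatocytes make in large amounts, differed by 0.50. None of these 6 partners passed 2-fold and 3 lay below 0, against 42.5% of all measured genes. Under spike-in scaling Tyrobp was at -0.30 and Hcst at -0.28, while Apoe was at 0.09 there and at its lowest, -0.04, in another setting, so their direction depends on the setting. Trem2 stood apart from its gene family by value, since Trem1 differed by 0.28, Trem3 by 0.43, Treml1 by 0.32, Treml2 by -0.39 and Treml4 by -0.03. Trem1, Treml1 and Treml4 changed sign with scaling, running from -0.13 to 0.57, from -0.09 to 0.61 and from -0.44 to 0.26.

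Gpnmb encodes a membrane glycoprotein of lysosomes and phagosomes that is induced in lipid-laden macrophages. Its signal was 3766 on the TSG-6 array and 12020 on the PBS array, or 1.52 and 3.81 times the 75th percentile of each array. The log2 difference was -1.32, and 354 measured genes (2.34%) had a lower one. Gpnmb was past 2-fold in each of the 12 alternative settings, from -1.73 to -1.03. Mitf, a transcription factor known to drive Gpnmb, differed by -0.89 with its brighter probe and -0.49 with the other, under 2-fold with the main scaling. Its relatives Tfeb and Tfe3 differed by -0.11 and -0.10, with Tfeb and Tfe3 above 0 when the percentile was taken over unflagged spots. Other genes of the lysosome did not move in step. The 9 measured genes of the list of Mitf family factors and lysosome proteins had a median of -0.10, from -0.51 to 0.19 over the settings, and none passed 2-fold with the main scaling. Mitf did so with arrays scaled to their median (-1.01) and to the spike-ins (-1.30). In the list, the lysosomal membrane proteins Lamp1 and Lamp2 differed by 0.13 and 0.28, the acid phosphatase Acp5 by 0.19 and the collagen-degrading cathepsin Ctsk by -0.37. Lamp1, Lamp2 and Acp5 were below 0 under spike-in scaling, at -0.28, -0.14 and -0.22. Tfec and Gla were lost to quality flags.

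Cd9 encodes a tetraspanin, a membrane organiser that pairs with integrins. Its only probe was flagged as non-uniform on both arrays, so Cd9 is absent from the counts. With the flagged spots kept, its signal was 8776 on the TSG-6 array and 15860 on the PBS array, a log2 difference of -0.50. Among the 11 other tetraspanins that were measured, none passed 2-fold and 8 lay below 0, against 42.5% of all measured genes. The lysosomal tetraspanin Cd63 had the lowest value, at -0.61, followed by the leukocyte tetraspanin Cd53 at -0.51, while Cd81 and Cd82 differed by 0.19 and 0.18 and were below 0 under spike-in scaling.

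Fabp5 and Lgals3 stayed closest to the PBS pool. Fabp5, an intracellular carrier of fatty acids, had a signal of 24903 on the TSG-6 array and 30363 on the PBS array, which became 10.1 and 9.61 times the 75th percentile. The log2 difference of 0.06 is smaller than the spot SD, and it ran from -0.35 with spike-in scaling to 0.35 with the percentile of unflagged spots, so no direction can be given. Its relative Fabp4, of adipocytes, endothelium and macrophages, differed by -0.32. The muscle-type Fabp3 was the only measured family member past 2-fold, at -1.13 with the brighter of 2 probes, and -0.84 with the percentile of unflagged spots. The hepatocyte form Fabp1 differed by 0.28, and by -0.13 under spike-in scaling. Lgals3 encodes galectin-3, a sugar-binding lectin of macrophages that also acts on fibroblasts. It had a signal of 24584 on the TSG-6 array and 38201 on the PBS array, a log2 difference of -0.28, which was 0.00 with the percentile of unflagged spots and -0.70 under spike-in scaling. Galectin-1 (Lgals1) differed by -0.13, Lgals9 by 0.31 and Lgals4, a galectin of gut epithelium, by 0.77. Lgals1 and Lgals9 changed sign with the scaling.

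Spp1 encodes osteopontin, a secreted matrix protein that binds integrins and Cd44. It had a signal of 19952 on the TSG-6 array and 44790 on the PBS array, or 8.06 and 14.2 times the 75th percentile. The log2 difference was -0.82, and it passed 2-fold under quantile normalization (-1.04), loess (-1.05) and spike-in scaling (-1.23). Among 10 genes of osteopontin receptors and of metalloproteinases that can cleave it, 2 passed 2-fold, both lower, against 4.29% of all measured genes. They were the stromelysin Mmp3, at -1.72, and the integrin chain Itgav, at -1.06 with its brighter probe and -0.71 with the other. Itgav was at -0.77 with the percentile of unflagged spots. Its partner Itgb3 differed by 0.23 and Itgb5 by 0.16, both below 0 under spike-in scaling, and Itgb1 by -0.32. The chains Itga4 and Itga9 differed by -0.20 and -0.37, Mmp7 by -0.66 and Mmp9 by 0.22. Itga4 and Mmp9 changed sign with the scaling. The 4 probes of Cd44 ran from -1.28 to -0.09.

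Itgax encodes CD11c, the alpha chain of a leukocyte integrin that binds complement fragments and fibrinogen. It was the lowest of the 9 genes by difference, with a signal of 2141 on the TSG-6 array and 7368 on the PBS array. Scaled, these were 0.864 and 2.33 times the 75th percentile, a log2 difference of -1.43, and 299 measured genes (1.97%) had a lower one. Itgax was past 2-fold in all 12 alternative settings, from -1.84 to -1.14. Its beta chain Itgb2, which every CD11 integrin needs, differed by -0.32. Of the other alpha chains that pair with Itgb2, Itgad (CD11d) was lower by a like amount, at -1.54, and Itgal (CD11a) differed by 0.09. Itgam (CD11b) differed by 0.33 with its brightest probe, but its 3 probes ran from -1.12 to 0.33. The sign of Itgal changed with the scaling. The Itgax ligands made by the liver did not move with it: the fibrinogen chains Fga, Fgb and Fgg differed by 0.30, 0.43 and 0.36, complement C3 by 0.44, and the adhesion molecules Icam1 and Icam2 by -0.18 and -0.05. Under spike-in scaling Fga and Fgg were below 0, and with the percentile of unflagged spots Icam1 and Icam2 were above it. With loess on mean signal Fga, Fgb and Fgg were at 0.03, 0.05 and 0.03 and C3 at 0.07. With arrays scaled to their median they were at 0.19, 0.31 and 0.25 and C3 at 0.32. The size of their rises thus depends on the setting.

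Ccr2 and Cx3cr1 are the chemokine receptors that separate monocyte states, with Ccr2 on inflammatory monocytes and Cx3cr1 rising as they mature. Ccr2 had a signal of 4230 on the TSG-6 array and 7935 on the PBS array, or 1.71 and 2.51 times the 75th percentile. Its log2 difference was -0.56. The brighter Cx3cr1 probe had a signal of 1692 on the TSG-6 array and 3849 on the PBS array, a log2 difference of -0.83. The dimmer Cx3cr1 probe had signals of 232.7 and 584.9 in the same order, with a difference of -0.98 that rests on a PBS spot flagged as non-uniform and was not used. Both probes were thus lower in the TSG-6 pool. Cx3cr1 passed 2-fold under spike-in scaling (-1.25) and Ccr2 did not (-0.97).

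The ligands of both receptors were lower as well. Of the Ccr2 ligands, Ccl7 was 3.16-fold lower, Ccl2, the main monocyte attractant, differed by -0.81, Ccl8 by -0.53 and Ccl12 by -0.32. Cx3cl1, the ligand of Cx3cr1, differed by -0.21. All 5 lay below 0, against 42.5% of all measured genes, and 1 was at least 2-fold lower, against 4.29%. Their median was -0.53 and ran from -0.94 to -0.24 over the settings. Cx3cl1 was at 0.08 with the percentile of unflagged spots. Among the other chemokine receptors, Ccr1, which monocytes and neutrophils carry, differed by -1.32, the eosinophil receptor Ccr3 by -1.21 and the dendritic cell receptor Ccr7 by -1.45. Ccr6, a chemokine receptor found on B cells, differed by 0.15 and Ccr9 by -0.32. Ccr10 was above 0 in each setting, from 0.46 to 1.29, but its probe was dim, with signals of 52.5 (TSG-6) and 33.5 (PBS). With the percentile of unflagged spots Ccr3 was at -0.92, under 2-fold, and Ccr6 was below 0 under spike-in scaling. Ccr4 was not well above background on either array.

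**Figure D2:**
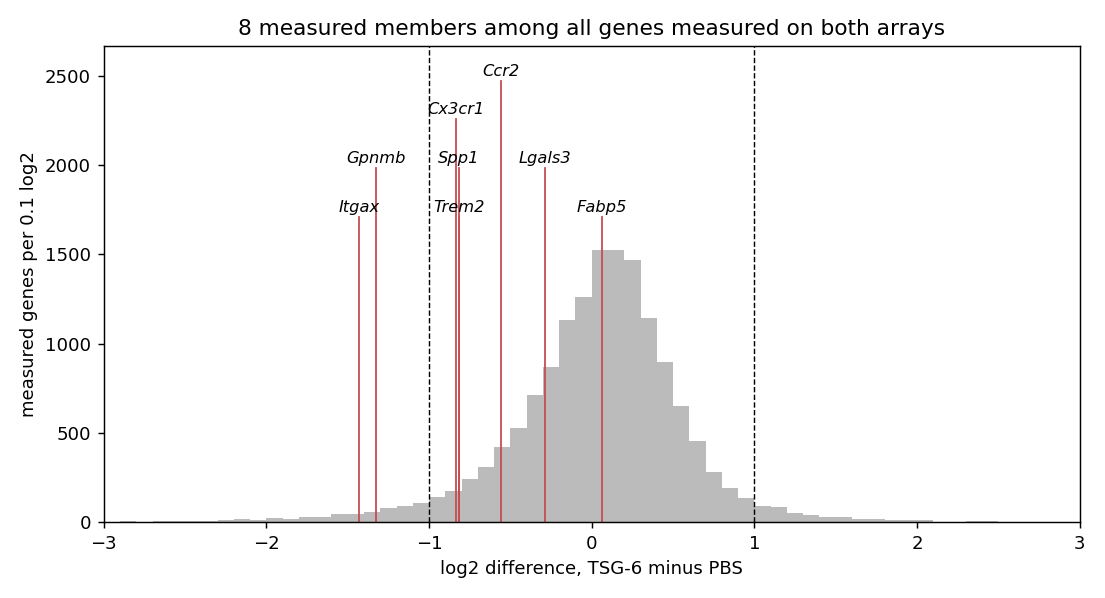
Histogram of the log2 difference (TSG-6 minus PBS) of all 15151 genes measured on both arrays, in bins of 0.1, with a red line at each of the 8 measured genes of this set and dashed lines at 2-fold. Itgax and Gpnmb lie beyond the lower dashed line, and Fabp5 lies in the bulk of all genes; the axis ends at -3 and 3.

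Over the set, 8 of the 9 genes were measured without a flag. Of these, 2 were lower by 2-fold or more, against 4.29% of all measured genes, and 0 higher by that much, against 2.94%. Below 0 were 7 of the 8, against 42.5% of all measured genes. Their median log2 difference was -0.82, against 0.08 for all. Relative to the median of all genes, that of the set was -0.89, and this distance stayed between -0.90 and -0.86 under the 12 alternative settings, since most settings shift all genes together. The count past 2-fold was 2 or 3 in 11 of the alternatives and 5 under spike-in scaling, when Cx3cr1, Trem2 and Spp1 also passed.

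**Figure D3:**
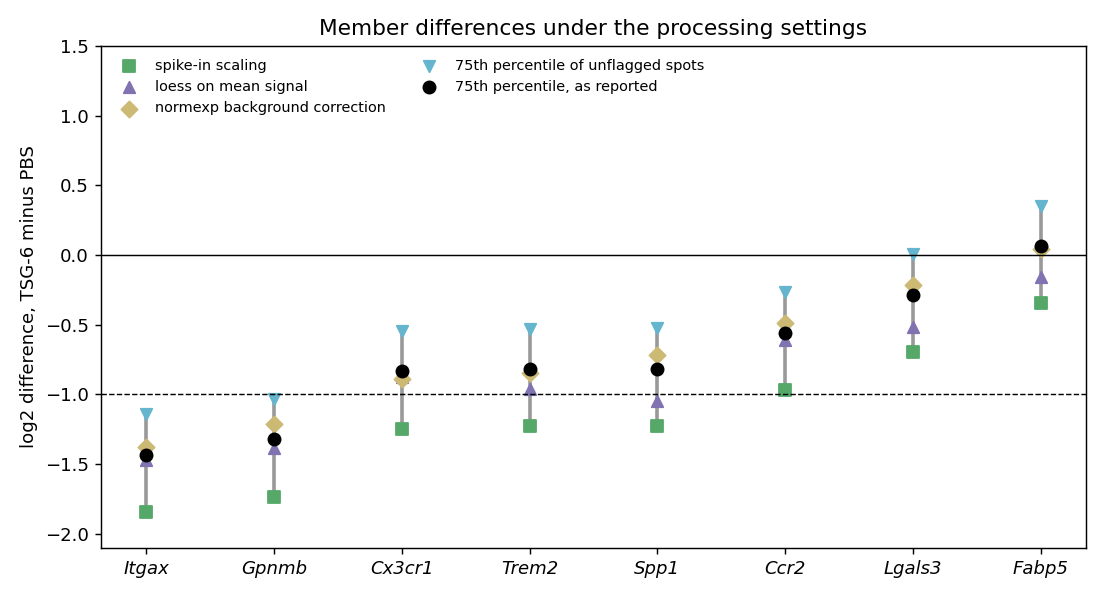
Log2 difference (TSG-6 minus PBS) of the 8 measured genes under the reported setting (black) and 4 of the alternatives (coloured symbols); grey bars span the reported setting and the 12 alternatives, and the dashed line is 2-fold lower. Itgax and Gpnmb stay below the dashed line throughout, and Fabp5 crosses 0.

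The genes were also set against general leukocyte and macrophage genes, which shows how far each lay from those genes on the same arrays. The pan-leukocyte marker Ptprc (CD45) differed by -0.26 and the pan-macrophage marker Adgre1 by -0.25, and scaling to the percentile of unflagged spots put them just above 0, at 0.03 and 0.04. Of 8 measured genes of that list, 1 was at least 2-fold lower, against 4.29% of all measured genes. This was the monocyte and macrophage lipopolysaccharide co-receptor Cd14, at -1.10. The median of the list was -0.25, from -0.67 to 0.04 over the settings. Cd14 was at -0.81 with the percentile of unflagged spots. Aif1 differed by 0.03, on either side of 0 with the scaling. The rest of the list was Cd53 at -0.51, Coro1a at -0.35, Laptm5 at -0.12 and Fcer1g at -0.01. A second Adgre1 probe was at -0.35. Relative to Adgre1 on the same arrays, Itgax was at -1.18, Gpnmb at -1.08, Cx3cr1 at -0.59, Trem2 and Spp1 at -0.57, Ccr2 at -0.31, Lgals3 at -0.04 and Fabp5 at 0.31. These distances do not depend on a scaling by 1 constant per array. They show unequal differences, with Itgax and Gpnmb furthest below Adgre1 and Lgals3 level with it. The distance depends on the gene chosen, since Ccr2, at -0.56, lay close to Cd53.

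With the main scaling, resident Kupffer cell genes were at or above their level in the PBS pool. Of 11 measured, 10 lay above 0, against 8708 of all 15151 measured genes. At least 2-fold higher was 1, against 2.94% of all measured genes. The Kupffer median was 0.17, against 0.08 for all. A rise was not particular to Kupffer cell genes, since all 7 measured hepatocyte genes also lay above 0, with a median of 0.36. With loess on mean signal the Kupffer median was 0.02 and the hepatocyte median 0.03. Timd4, a receptor for dying cells on long-lived Kupffer cells, was higher by 1.26, C6 by 0.79 and Cd163 by 0.58. The Cd163 probe was dim, with a signal of 53.8 on the TSG-6 array and 45.8 on the PBS array, so its value carries little weight. The lectin Clec4f differed by 0.29 and the complement receptor Vsig4 by 0.27, and with loess on mean signal they were at 0.04 and 0.02. The summed scaled signal of the list was 94.5 in the TSG-6 pool and 83.5 in the PBS pool, and that of the measured recruited and scar-associated genes was 36.9 in the TSG-6 pool and 53.0 in the PBS pool. The Kupffer median was -0.24 under spike-in scaling, when Clec4f and Vsig4 were also below 0, while Timd4, C6 and Cd163 kept their sign, at 0.84, 0.37 and 0.17. Under quantile normalization and under loess 5 of the 11 lay below 0, and 8 did so under spike-in scaling. Relative to the median of all genes, the Kupffer median stayed above 0 in every setting, from 0.04 to 0.12. The difference between the lists has no test in this design.

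Few of the other genes of the same macrophage states passed 2-fold. With the main scaling their summed signals were not lower in the TSG-6 pool, but the brightest gene of each list weighs heavily in its sum. Among 19 measured further genes of scar-associated and lipid-associated macrophages, 1 was at least 2-fold lower and 11 lay below 0. Their median was -0.13 and ran from -0.54 to 0.16 over the settings. Of all measured genes, 4.29% were at least 2-fold lower and 42.5% lay below 0. The scaled signals of the 19 genes summed to 214 in the TSG-6 pool and 205 in the PBS pool. The brightest of them was Apoe, with a level of 6.15 in the TSG-6 pool and 5.65 in the PBS pool (log2 of the scaled signal). Its own difference was 0.50, so the sum does not describe the other genes of the list. The gene past 2-fold was the macrophage elastase Mmp12, at -3.95. It was followed by the annexin Anxa2 at -0.99, the stress cytokine Gdf15 at -0.78 and Cd63 at -0.61. Among 15 measured further genes of recruited monocytes, 2 were at least 2-fold lower and 10 lay below 0. Their median was -0.36, from -0.78 to -0.07 over the settings, and their scaled signals summed to 115 in the TSG-6 pool and 96.6 in the PBS pool. The brightest of the 15 was Ms4a4c, with levels of 5.96 and 5.45 in the same order, above those of Alb (4.67 and 4.31). Its 3 probes ran from -0.54 to 0.51. Next came Itgam, with levels of 4.62 and 4.30, and its 3 probes ran from -1.12 to 0.33. The sum rests largely on the brightest probes of Ms4a4c and Itgam, so it does not describe the other genes of the list. The genes past 2-fold were Ccr1, at -1.32, and Vcan, at -1.12 with its brightest probe and -0.04 with another. Vcan was under 2-fold as the mean of its probes (-0.58), after normexp (-0.93) and when only unflagged spots set the percentile (-0.83). The Fc receptor Fcgr1 differed by -0.81 and the chitinase-like protein Chil3 by -0.73. The 11 growth factors and lineage regulators of macrophages centred on 0.01, with medians from -0.40 to 0.30 over the settings. The transcription factor Runx1 alone passed 2-fold among them, at -1.18, and was at -0.89 with the percentile of unflagged spots.

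Genes of other cells that express members were read beside them. Of all measured genes, 42.5% lay below 0 and 4.29% were at least 2-fold lower. Activated stellate cell genes, which mark the collagen-producing cells of the scar, were all below 0 (10 of 10), 4 of them at least 2-fold lower, with a median of -0.78. Scaling to the percentile of unflagged spots left 8 of the stellate cell genes below 0 and 2 past 2-fold. Their summed scaled signal was 38.0 in the TSG-6 pool and 58.9 in the PBS pool. Acta2, the smooth muscle actin of myofibroblasts, was the lowest, at -2.47. Bile duct genes without Spp1 had a median of -0.16 over 6 measured genes, 4 of them below 0, and a summed scaled signal of 4.92 in the TSG-6 pool and 6.02 in the PBS pool. The duct keratins Krt7 and Krt19 differed by -0.02 and -0.29, and Cftr was not well above background on either array. The 7 measured dendritic cell genes centred on 0.10, with 3 below 0 and sums of 8.83 and 9.08 in the same order, with Ccr7 past 2-fold. The 10 NK and T cell genes centred on -0.04, with 7 below 0 and sums of 6.04 and 6.12. The 6 platelet genes centred on 0.31, with 1 below 0 (Pf4, -0.94) and sums of 4.30 and 6.81. The 7 endothelial genes centred on 0.22, with 2 below 0 and sums of 25.6 and 25.2. Medians of the bile duct, dendritic, NK and T cell, platelet and endothelial lists changed sign with the scaling. The part of these cells in the differences of Spp1, Cd9, Itgax, Cx3cr1 and Fabp5 was not tested.

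Genes of neutrophil granules stood higher after TSG-6 than after PBS. Of 9 neutrophil genes measured, 5 were at least 2-fold higher, against 2.94% of all measured genes, and 1 lay below 0. Their median was 2.78, and their scaled signals summed to 59.0 in the TSG-6 pool and 31.4 in the PBS pool. The 5 were the granule genes Ngp, Ltf, Camp, Mpo and Elane, while S100a9 differed by 0.18 and was at -0.23 under spike-in scaling. With flagged spots kept, the median over 10 genes was 1.82.

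**Figure D4:**
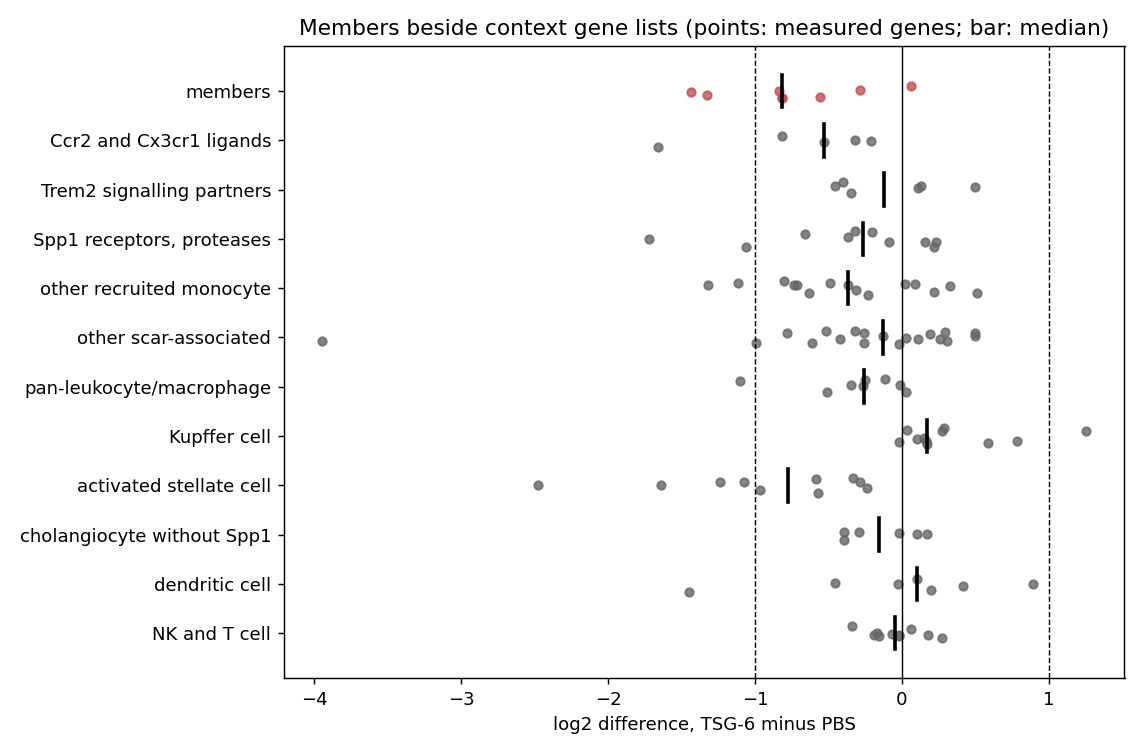
Log2 difference (TSG-6 minus PBS) of each measured gene in the recruited and scar-associated set (red) and in 11 lists set beside it (grey), with a black bar at the median, a line at 0 and dashed lines at 2-fold. The red median of -0.82 lies near that of activated stellate cell genes (-0.78), and the Kupffer cell median of 0.17 lies to the right of 0.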

How the data were processed

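Liver RNA of 3 pooled mice per group was measured on 1 one-colour array for TSG-6 and 1 for PBS. The deposited scanner files give spot intensity, background-subtracted and detrended within the array, from Agilent Feature Extraction 11.5.1.1 per the file headers (10.7 per the submitters' processing notes). The deposited value table holds log2 values that equalled the log2 processed signal minus 1 constant per array within 0.01 for 100% of single-spot probes, with medians of -3.77 (TSG-6) and -3.90 (PBS). Control spots, and spots with a non-uniformity or population flag (6.44% of spots for TSG-6, 3.40% for PBS), were left out; a probe was measured if 50% or more of its spots stood well above background on each array. Each array's log2 signal had its 75th percentile over all non-control spots subtracted. The probe of highest mean signal stood for a gene. Accessions were named through RefSeq genes of GRCm38.p6 (26762 of 55681 probes matched). Calls used 2-fold; no test was possible. The self-test on simulated data gave the calls it was made with. It added only spot noise to shifts planted on either side of 2-fold, so it cannot show how reliable a call is across mice or arrays. Members and lists were chosen with earlier results of these data known. Genes were named by list: all members, all ligands, partners and receptors, up to 4 genes of largest difference per other list, and family members. Lamp1, Lamp2, Acp5, Ctsk, Aif1, Laptm5, Fcer1g, Ms4a4c, Clec4f, Vsig4, Krt7, Alb and S100a9 were named as context after their values were seen. Adgre1 was named outside that rule as the pan-macrophage reference. limma 3.58.1 was used for normexp (offset 50), quantile and loess (span 0.3).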

Additional observations from a re-analysis of the deposited data

How the results depend on the processing

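In 12 alternative settings the count of genes at least 2-fold lower was 2 or 3 except under spike-in scaling, where it was 5; none was 2-fold higher in any. The median log2 difference of the set was -1.23 under spike-in scaling and -0.53 with the percentile of unflagged spots, and stayed within the spot SD of -0.82 in the other 10. Both settings move all genes, whose median was -0.34 under spike-in scaling and 0.37 with the percentile of unflagged spots. Over all measured genes, normexp gave 402 lower and 290 higher, and leaving dim probes in gave 956 lower and 906 higher. No replicate could be left out, since each group is 1 pool. No paired analysis was possible because each group has a single array. All 10 probes were well above background on both arrays, so signal over background does not limit these values. The number of arrays does, and so do the choice of scaling and the flagged spots of Cd9 and of the dimmer Cx3cr1 probe. Counts of the lists beside the set moved too: under spike-in scaling 6 of the further monocyte genes and 4 of the further scar-associated genes were at least 2-fold lower.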
